A study of Mus musculus with 16 samples.

Results

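Guanylate-binding proteins (Gbp) are large GTPases that cells make in response to interferons, and the 10 mouse genes Gbp2, Gbp3, Gbp4, Gbp5, Gbp6, Gbp7, Gbp8, Gbp9, Gbp10 and Gbp11 were followed here across 2 tissues and 2 genotypes. They are 10 of the 55536 genes in the deposited count table, taken by their symbols in the GENCODE M21 annotation. The family was chosen by measured values, since Gbp9 and Gbp10 had come into view by their knockout over control differences in visceral fat. Fold changes of genotype in fat are therefore given as a description with no test.

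RNA was sequenced from the red part of the gastrocnemius, a calf muscle rich in oxidative fibres, and from visceral fat of 8 female mice. The 16 libraries form 4 groups of 4, namely fat of conditional MusMyD88-/- mice (knockout), fat of Cre-Control mice, red gastrocnemius of the knockouts and red gastrocnemius of the controls. Mice 139, 958, 960 and 29 were knockouts and mice 131, 137, 138 and 11 were controls, each giving 1 library per tissue. Every mouse had wheel access for 5 weeks and then spent 8 days in a small cage that restricted movement. MyD88, the adaptor of most Toll-like receptors and of the interleukin-1 receptor, was deleted in muscle by the labels, so fat of the knockouts comes from animals whose deletion was made in another tissue. Not given in the sources used here are the promoter driving Cre, the exons removed and the ages of the mice.

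Gbp genes are transcribed strongly when interferon-gamma signals through its receptor and the JAK kinases, in part by way of the transcription factor IRF1. Their products bind membranes of vacuoles that hold microbes, often through a prenyl anchor, and help to open them and to switch on inflammasomes, the complexes that activate caspase-1. They work beside another family of interferon-inducible GTPases, the IRG proteins such as Igtp and Irgm1.

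The 4 members on mouse chromosome 3 lie head to tail on the plus strand (GRCm38), with Gbp5 at 142493978 to 142522344, Gbp7 at 142530342 to 142550149, Gbp3 at 142560026 to 142573209 and Gbp2 at 142620602 to 142638008. The 6 members on chromosome 5 lie on the minus strand, with Gbp8 at 105014150 to 105139540, Gbp9 at 105077630 to 105139539, Gbp4 at 105115767 to 105139586, Gbp10 at 105215699 to 105239533, Gbp6 at 105270702 to 105293698 and Gbp11 at 105323042 to 105346472. GENCODE M21 lists 9 members as protein-coding and Gbp11 as a polymorphic pseudogene, a gene that is intact in some strains only.

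The promoters of the chromosome 3 members are shown because these genes are switched on through short interferon-responsive elements. The sequences are RefSeq's for GRCm38.p6, run 5′ to 3′ on the plus strand, and cover 250 bases before and 50 bases from each annotated start, at chr3:142620413-142620712 for Gbp2, chr3:142559794-142560093 for Gbp3, chr3:142496684-142496983 for Gbp5 and chr3:142530086-142530385 for Gbp7. Capitals mark matches on either strand to GAAA, any 2 bases and GAAA again, the core of the interferon-stimulated response element (ISRE), or to TTCNNNGAA, the gamma-activated site (GAS).
Gbp2: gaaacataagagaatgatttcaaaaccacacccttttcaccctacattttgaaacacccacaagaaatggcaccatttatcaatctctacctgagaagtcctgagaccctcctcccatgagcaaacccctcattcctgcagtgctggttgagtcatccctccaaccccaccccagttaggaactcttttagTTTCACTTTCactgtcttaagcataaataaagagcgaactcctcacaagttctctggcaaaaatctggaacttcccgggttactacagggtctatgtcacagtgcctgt
Gbp3: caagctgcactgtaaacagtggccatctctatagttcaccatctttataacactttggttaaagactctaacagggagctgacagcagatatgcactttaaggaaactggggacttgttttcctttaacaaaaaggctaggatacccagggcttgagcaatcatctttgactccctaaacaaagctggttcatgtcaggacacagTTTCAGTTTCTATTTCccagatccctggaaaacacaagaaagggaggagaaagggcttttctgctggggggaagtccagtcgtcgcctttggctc
Gbp5: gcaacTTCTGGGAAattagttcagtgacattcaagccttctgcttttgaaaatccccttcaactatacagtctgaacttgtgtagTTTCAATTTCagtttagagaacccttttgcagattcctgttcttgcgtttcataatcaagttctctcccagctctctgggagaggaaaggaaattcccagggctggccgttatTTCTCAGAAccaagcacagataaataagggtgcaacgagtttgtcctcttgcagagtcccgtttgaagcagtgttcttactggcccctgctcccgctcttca
Gbp7: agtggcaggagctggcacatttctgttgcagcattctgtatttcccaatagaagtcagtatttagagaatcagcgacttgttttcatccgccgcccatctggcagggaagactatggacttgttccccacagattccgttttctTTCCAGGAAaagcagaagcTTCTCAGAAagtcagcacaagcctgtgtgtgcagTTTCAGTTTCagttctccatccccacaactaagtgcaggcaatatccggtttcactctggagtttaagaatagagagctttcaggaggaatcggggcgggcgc

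All 4 promoters held an ISRE match, against 3.44% of the 32851 mouse promoters in the same table. In each of the 4 the ISRE lies in reverse, as TTTC repeats, and Gbp3 has 2 overlapping copies. The ISRE begins 59 bases before the start in Gbp2, 45 and 39 bases before it in Gbp3, 165 in Gbp5 and 53 in Gbp7. A GAS match was present in Gbp5 and Gbp7, with 2 copies each, against 8.30% of all promoters, and 0.454% of all promoters held both motifs. GAS and ISRE matches did not overlap each other. A second RefSeq start of Gbp3 had no match in its window. Such matches describe letters and not binding. The chromosome 5 members were not in the promoter table.

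The chromosome 5 genes are near copies of each other, which limits what short reads can tell about them. Coding sequences of Gbp6 and Gbp10 were identical at 98.4% of aligned bases, with a longest identical run of 421 bases. Gbp9 and Gbp10 were identical at 90.7%, with a longest identical run of 66 bases. On chromosome 3 the closest pair was Gbp3 and Gbp7 at 78.6%, while Gbp2 and Gbp5 reached 69.7%. The same 51 bases of exon 11, the length of 1 sequenced read, show the contrast in 3 genes, from chr5:105217344-105217394 for Gbp10, chr5:105273141-105273191 for Gbp6 and chr5:105080118-105080168 for Gbp9 (GRCm38, minus strand, 5′ to 3′), with capitals where a base differs from Gbp10.
Gbp10: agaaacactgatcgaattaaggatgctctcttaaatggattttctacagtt
Gbp6: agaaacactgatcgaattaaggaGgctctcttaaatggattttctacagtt
Gbp9: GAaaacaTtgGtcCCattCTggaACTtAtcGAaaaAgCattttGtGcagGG

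Gbp6 differed from Gbp10 at 1 base of this window and Gbp9 at 20 bases. The window was picked as the one within 1 exon with the most differences between Gbp9 and Gbp10, so it is not typical of these genes. Over whole transcripts, 72.9% of the 51-base stretches of Gbp10 also occurred in Gbp6, but 1.73% occurred in Gbp9. Of the stretches of Gbp9, 7.73% occurred in any other gene and 1.28% in Gbp10. Counts of Gbp10 and Gbp6 are thus uncertain against each other, whereas nearly all stretches of Gbp9 are its own. The annotation adds a readthrough gene, Gm43302, which covers 46.3% of the exon bases of Gbp10 and 29.0% of those of Gbp6. Gm43302 had a count of 0 in all 16 libraries. Of its 51-base stretches 99.98% also occur in other genes, so this 0 sets no bound on its level. The treatment of reads in such shared exons by the authors' counting: not given in the sources used here. Gbp8, Gbp9 and Gbp4 share 60 to 61 exon bases at their common first exon. Gbp7 shares 637 exon bases with Gm43802, or 11.3% of its exons.

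**Figure D1:**
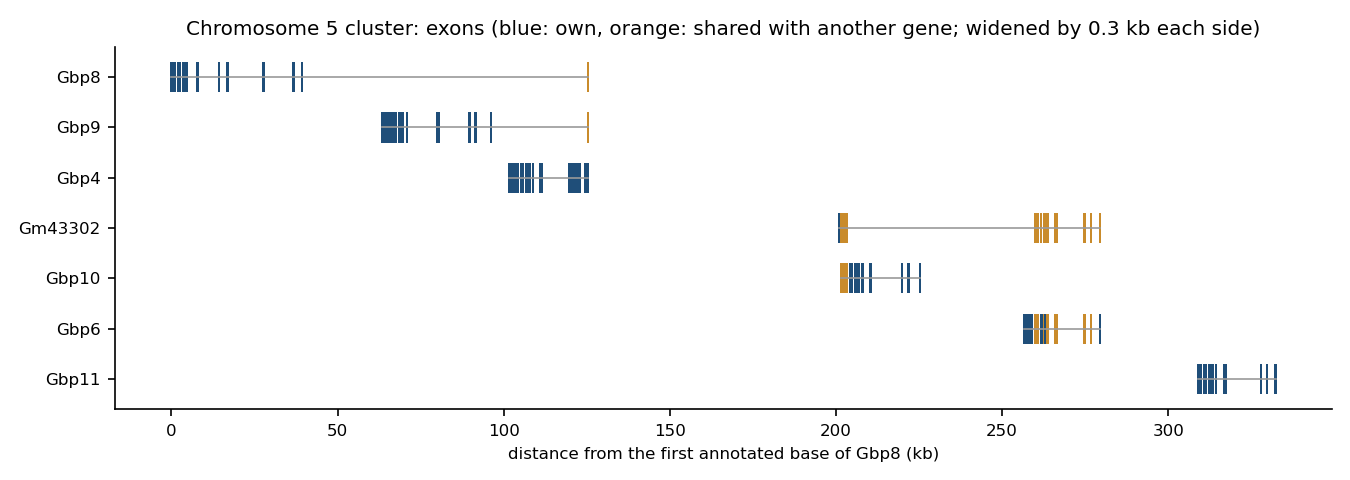
Exons of the 6 chromosome 5 members and of the readthrough gene Gm43302, by distance in kb from the first annotated base of Gbp8, with own exon bases in blue and exon bases shared with another gene in orange. The orange blocks of Gbp10 and Gbp6 lie under Gm43302, and Gbp8, Gbp9 and Gbp4 share a single first exon.

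The total count was 13242243 to 19114782 in fat libraries and 15203806 to 21747345 in muscle libraries. Levels are CPM, counts scaled to library size with TMM factors over all 16 libraries, which were 1.34 to 1.86 in fat and 0.616 to 0.681 in muscle. In bulk tissue, fewer cells of a type and less RNA per cell cannot be told apart. Myd88, the targeted gene, was at 3.29, 3.03, 2.50 and 2.92 CPM in muscle of knockout mice 139, 958, 960 and 29, against 3.31, 3.13, 5.20 and 4.46 CPM in controls 131, 137, 138 and 11. These ranges overlapped, and the log2 fold change was -0.47 (SE 0.20; edgeR adjusted p = 0.949; two-sided exact permutation p = 0.0571). Marker genes matched the tissue labels. The adipocyte gene Adipoq was at 325 to 2396 CPM in fat and 3.38 to 36.9 CPM in muscle, and the muscle creatine kinase gene Ckm was at 25.5 to 238 CPM in fat and 16134 to 24403 CPM in muscle. In fat of control mouse 138, a library unlike the other fat libraries, the 5 smooth muscle markers summed to 8354 CPM and the 5 urothelial markers to 1072 CPM, while the 5 adipocyte markers summed to 2521 CPM, the lowest of the fat libraries.

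Levels of different genes are compared per kb of exon bases that no other annotated gene covers. On that scale Gbp2 had the highest level in both tissues, at 22.3 ± 3.24 CPM per kb in fat and 7.25 ± 2.25 CPM per kb in muscle (SD, n = 8 each). Gbp2 codes for a protein that coats vacuoles of the parasite Toxoplasma in mouse cells. In fat the order was Gbp2, Gbp7, Gbp3, Gbp9, Gbp4, Gbp11, Gbp5, Gbp6, Gbp10 and Gbp8. Only Gbp2 stood clear of its neighbour there, and each of the other neighbouring pairs had overlapping ranges. In muscle the order was Gbp2, Gbp7, Gbp9, Gbp3, Gbp4, Gbp10, Gbp5, Gbp6, Gbp8 and Gbp11. Of the 51-base stretches of Gbp10 83.8% occur in another gene, and of those of Gbp6 70.5%. The levels per kb of Gbp10 and Gbp6, and their places in both orders, are therefore uncertain. A gap between neighbours' ranges was seen there between Gbp6, at 0.610 to 1.219 CPM per kb, and Gbp8, at 0.0224 to 0.125 CPM per kb.

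**Figure D2:**
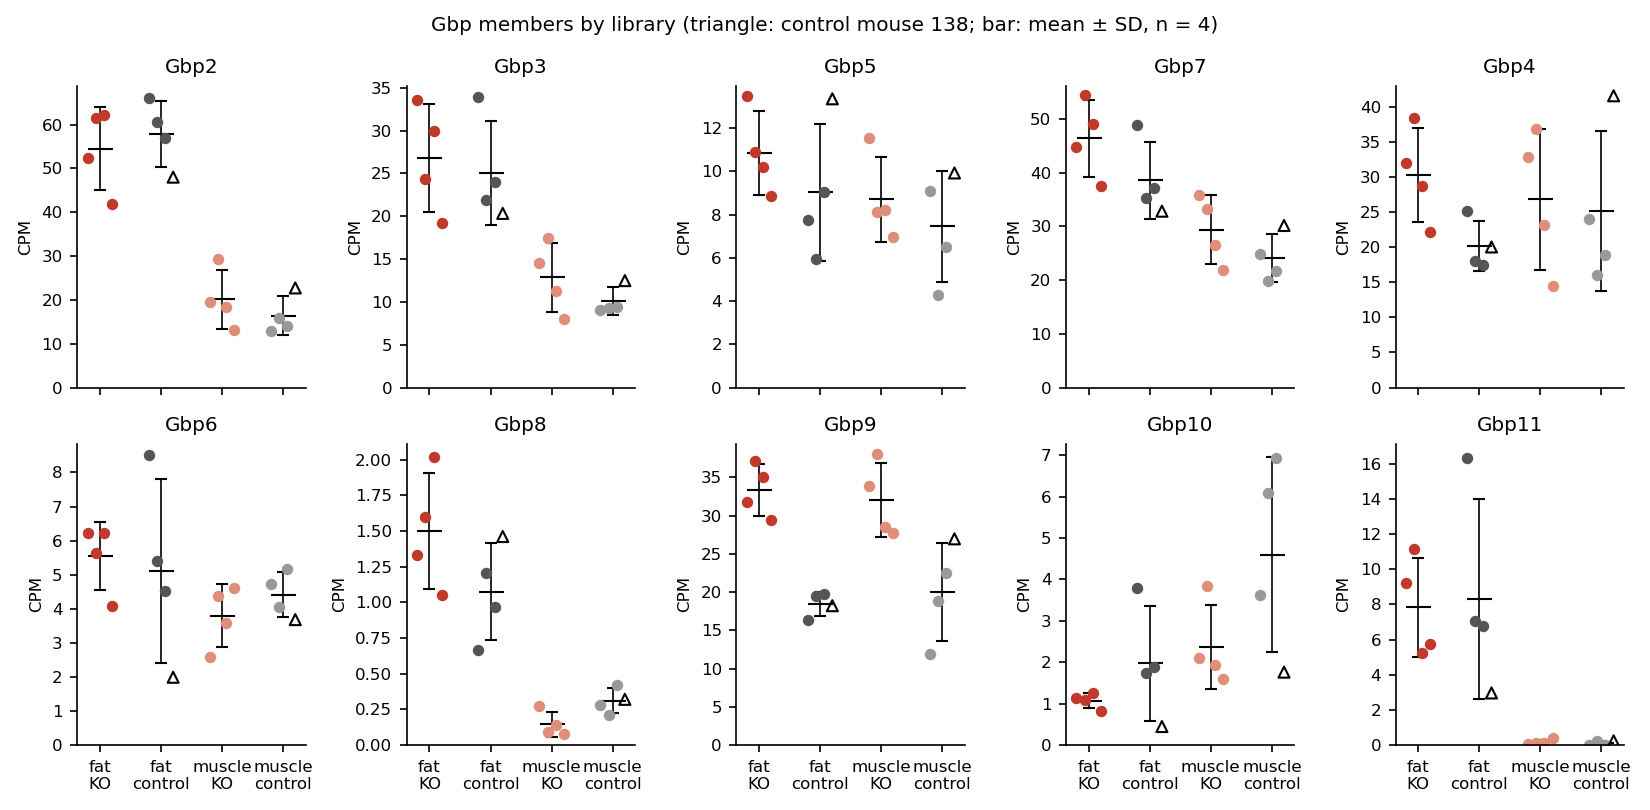
Level of each member in CPM, a panel per gene with its own axis from 0, in fat of knockouts, fat of controls, muscle of knockouts and muscle of controls. Points are libraries, bars are the mean ± SD over 4 mice, and triangles mark control mouse 138. Gbp11 and Gbp8 are near 0 in muscle, and Gbp9 is higher in every knockout than in every control within each tissue.

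The tissue difference was tested over all 16 libraries with edgeR's quasi-likelihood test, with no term for the mouse. A gene was called at an adjusted p under 0.05 over all 17084 genes tested. Of all genes 79.6% were called, 44.0% higher in fat and 35.7% lower. All 10 members passed the filter on low counts. Of these, 5 were called higher in fat (Gbp11, Gbp8, Gbp2, Gbp3 and Gbp7), 1 was called lower (Gbp10, though not on total counts) and 4 were not called (Gbp4, Gbp5, Gbp6 and Gbp9). Gbp8 and Gbp11 did not pass the filter among the muscle libraries and entered through fat, where they are high, so their calls add nothing to the count. Of the 8 members that passed in muscle too, 3 were called higher and 1 lower. The share of members called is not above that of all genes, so what the members show lies in the size and direction of each difference. The 3 most abundant chromosome 3 genes were higher in fat, while the 2 most abundant chromosome 5 genes, Gbp4 and Gbp9, had log2 fold changes near 0 with TMM scaling and were called higher in fat on total counts.

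Gbp11 had the largest tissue difference of the 10. It was at 11.1, 5.23, 5.73 and 9.20 CPM in fat of knockout mice 139, 958, 960 and 29, and at 7.08, 6.76, 2.96 and 16.3 CPM in fat of control mice 131, 137, 138 and 11. In muscle it was at 0.091, 0.138, 0.379 and 0.068 CPM in the same knockouts and at 0.214, 0, 0.240 and 0 CPM in the same controls. All 8 mice were higher in fat, and the counts summed to 1493 in fat and 14 in muscle. The counts of 0 in controls 137 and 11 allow up to 3 counts, or 0.253 and 0.279 CPM. The log2 fold change of fat over muscle was 5.80 (SE 0.50). No p is given, because Gbp11 entered the test through fat, where it is high.

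Gbp8 was the other chromosome 5 member with little signal in muscle. It had 27 to 42 counts in fat of knockouts and 15 to 36 in fat of controls, but 1 to 4 in muscle of knockouts and 2 to 5 in muscle of controls. Its log2 fold change was 2.51 (SE 0.27), with 8 of 8 mice higher in fat, and no p is given for the same reason as for Gbp11. The muscle level rests on 22 counts over 8 libraries.

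Among the chromosome 3 genes, Gbp2 was at 61.5, 62.2, 41.9 and 52.4 CPM in fat of knockout mice 139, 958, 960 and 29, and at 60.5, 56.9, 48.0 and 66.1 CPM in fat of controls 131, 137, 138 and 11. In muscle Gbp2 was at 29.4, 18.4, 13.1 and 19.4 CPM in the knockouts and at 15.8, 14.03, 22.7 and 12.998 CPM in the controls. Every fat library exceeded every muscle library, and the log2 fold change was 1.63 (SE 0.16; edgeR adjusted p = 1.32e-07). How many of all genes lack overlap between the tissues was not counted, while 79.6% of them were called. Gbp3 averaged 25.9 ± 5.82 CPM in fat and 11.5 ± 3.23 CPM in muscle (SD, n = 8 each), also without overlap, for a log2 fold change of 1.19 (SE 0.17; edgeR adjusted p = 7.99e-06). Gbp7, whose product is linked to assembly of the NADPH oxidase in mouse macrophages, averaged 42.5 ± 7.82 CPM in fat and 26.8 ± 5.84 CPM in muscle, and 8 of 8 mice were higher in fat although the ranges overlapped. Its log2 fold change was 0.67 (SE 0.13; edgeR adjusted p = 0.00015). Gbp5, whose product promotes NLRP3 inflammasome activation, was higher in fat in 7 of 8 mice, at 9.94 ± 2.62 CPM in fat and 8.08 ± 2.22 CPM in muscle. Its log2 fold change of 0.29 (SE 0.19) was not called (edgeR adjusted p = 0.166), but with the mouse as replicate block, which pairs both tissues of an animal, it was 0.30 (SE 0.09; edgeR adjusted p = 0.012).

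Gbp10 was the member called lower in fat with TMM scaling, while on total counts its log2 fold change was 0.00 and not called. It was at 1.08, 1.25, 0.818 and 1.13 CPM in fat of knockout mice 139, 958, 960 and 29, and at 1.75, 1.89, 0.446 and 3.80 CPM in fat of controls 131, 137, 138 and 11. In muscle it was at 3.84, 1.93, 1.59 and 2.10 CPM in the knockouts and at 6.09, 6.93, 1.76 and 3.62 CPM in the controls. Control 11 was the single mouse of 8 with a higher value in fat than in muscle, and the log2 fold change was -1.18 (SE 0.36; edgeR adjusted p = 0.0077). Gbp6, its near copy, was higher in fat in 5 of 8 mice, at 5.33 ± 1.90 CPM in fat and 4.10 ± 0.81 CPM in muscle, with a log2 fold change of 0.38 (SE 0.23; edgeR adjusted p = 0.139). Without mouse 138 the log2 fold change of Gbp6 was 0.47 (SE 0.17), and it was called (edgeR adjusted p = 0.016; range 4.9e-06 to 0.377 over 17 alternatives). Reads of Gbp10 and Gbp6 may be divided between the copies, and Gbp10 held 21.0% ± 6.34 of their joint counts in fat and 43.2% ± 11.9 in muscle (SD, n = 8 each).

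Gbp4 averaged 25.2 ± 7.36 CPM in fat and 25.9 ± 10.0 CPM in muscle, and Gbp9 averaged 25.9 ± 8.33 CPM in fat and 26.0 ± 8.30 CPM in muscle (SD, n = 8 each). Their log2 fold changes were -0.07 (SE 0.21) and -0.03 (SE 0.13), and 5 of 8 mice were higher in fat for Gbp4 and 4 of 8 for Gbp9. Neither was called (edgeR adjusted p = 0.763 for Gbp4 and 0.8286 for Gbp9).

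These differences are relative to how the libraries are scaled. The median log2 fold change of all genes was 0.16 with TMM and 1.36 on total counts, a shift of 1.20. On total counts Gbp11, Gbp8, Gbp2, Gbp3 and Gbp7 were again called higher in fat, Gbp10 was at 0.00 and not called, and Gbp5, Gbp6, Gbp9 and Gbp4 were called higher at 1.52, 1.56, 1.17 and 1.13. That makes 9 members called higher, beside 79.9% of all genes, with Gbp8 and Gbp11 among them although they entered through fat. Under both scalings Gbp10, Gbp4 and Gbp9 lay below the median of all genes and the other 7 members lay above it.

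**Figure D3:**
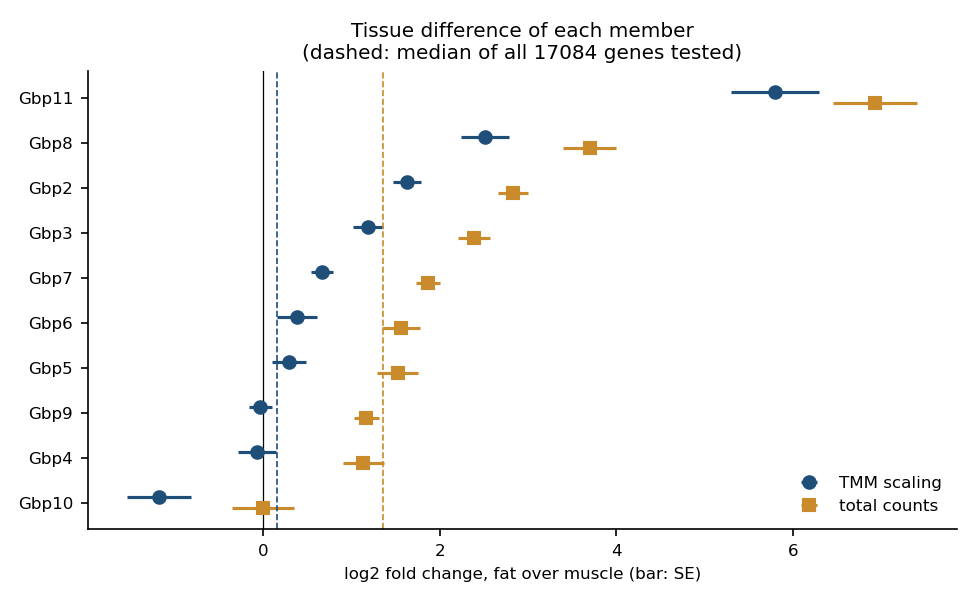
Log2 fold change of fat over muscle for each member with its SE, with TMM scaling (blue circles) and on total counts (orange squares), and dashed lines at the medians of all 17084 genes tested. Gbp11 at 5.80 and Gbp8 at 2.51 lie far to the right with TMM, while Gbp10 at -1.18 lies to the left of the median of 0.16.

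The summed chromosome 5 cluster was at 67.3 ± 17.2 CPM in fat and 59.9 ± 14.7 CPM in muscle, and the summed chromosome 3 members were at 135 ± 18.7 CPM in fat and 64.5 ± 15.4 CPM in muscle (SD, n = 8 each). The cluster was higher in fat in 6 of 8 mice and the chromosome 3 sum in 8 of 8. A share within the family does not depend on the scaling between libraries. The chromosome 5 cluster held 33.0% ± 4.002 of all Gbp counts in fat (range 28.2 to 38.6%) and 48.1% ± 2.07 in muscle (range 44.3 to 51.0%), with no overlap. Gbp2 held 28.1% ± 3.86 in fat and 14.5% ± 1.76 in muscle, and Gbp9 held 12.8% ± 3.21 in fat and 20.9% ± 4.67 in muscle.

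Genes of the interferon-gamma pathway, ligand to targets, were set beside the family. Of 25 listed, 24 were tested between tissues, and 16 were called higher in fat and 5 lower, with a median log2 fold change of 1.19 beside 0.16 for all genes, of which 44.0% were called higher and 35.7% lower. Cxcl9, Cxcl10 and Socs1 did not pass the filter in muscle and entered through fat, where they are high. Of the 21 that passed in both, 13 were called higher and 5 lower, with a median of 1.12. On total counts 22 of the 24 were called higher and 1 lower, beside 79.9% of all genes called higher. The ligand gene Ifng did not pass the filter on low counts. The receptor chains differed, since Ifngr1 averaged 123 ± 29.5 CPM in fat and 46.5 ± 6.30 CPM in muscle, whereas Ifngr2 averaged 20.4 ± 2.71 CPM in fat and 86.5 ± 9.10 CPM in muscle. The log2 fold change of Ifngr2 was -2.09 (SE 0.07; edgeR adjusted p = 6.38e-13), and on total counts it was -0.88. The kinase gene Jak2 had a log2 fold change of -1.10 (SE 0.10; edgeR adjusted p = 3.07e-08) with TMM and of 0.12, not called, on total counts. The phosphatase gene Ptpn2 and the IRG gene Irgm1 were also lower in fat with TMM, at -0.50 (SE 0.07) and -0.36 (SE 0.09), but were called higher on total counts, at 0.71 and 0.85. Of the genes higher in fat that passed the filter in both, those with the smallest p were Ciita (log2 fold change 2.75, SE 0.18), Nlrc5 (2.67, SE 0.20) and Ptpn6 (2.06, SE 0.18). Cxcl9 was at 4.46 (SE 0.32), but its p is not used because it entered through fat. Ciita and Nlrc5 code for activators of antigen presentation genes, Cxcl9 for a T cell chemokine and Ptpn6 for a phosphatase of blood cells.

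A list of 13 genes of inflammasomes and of prenylation covered the 2 processes through which Gbp proteins act or are anchored. Of 12 tested, 7 were called higher in fat and 4 lower, with a median log2 fold change of 1.504, beside 44.0% of all genes called higher and 35.7% lower. Il18, Nlrp3 and Pycard, 3 of the 7, entered through fat alone. Of the 9 that passed the filter in muscle too, 4 were called higher and 4 lower, with a median of 0.21. The inflammasome genes Casp4, Casp1, Aim2 and Gsdmd had log2 fold changes of 1.99 (SE 0.14), 2.68 (SE 0.24), 1.53 (SE 0.16) and 1.48 (SE 0.19). The 4 lower genes, with TMM scaling, were of the prenylation machinery, with Pggt1b at -0.43 (SE 0.05), Fnta at -0.47 (SE 0.07), Icmt at -0.35 (SE 0.06) and Fntb at -0.43 (SE 0.11), while Rce1, of the same machinery, was at 0.21 and not called. On total counts all 12 were called higher, beside 79.9% of all genes, so the direction of those 4 flips with the scaling.

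Macrophage markers and T and NK cell markers differed between the tissues as well, while B cell markers overlapped. The 5 B cell markers summed to 0.893 to 2.83 CPM in fat and 0.160 to 1.39 CPM in muscle. The 7 macrophage markers summed to 250 to 519 CPM in fat and 53.5 to 112 CPM in muscle, with none at 0 in any group. The 8 T and NK cell markers summed to 1.74 to 5.99 CPM in fat and 0.08 to 0.814 CPM in muscle, where Cd3g and Cd8a were at 0 in the controls. The 6 endothelial markers summed to 211 to 565 CPM in fat and 319 to 409 CPM in muscle. Their part in the tissue differences of the Gbp genes was not tested.

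The genotype comparison in muscle, the tissue of the deletion, asks whether loss of MyD88 there goes with a change in the family. Of the 10 members, 8 passed the filter on low counts, and Gbp8 and Gbp11 did not. None was called (edgeR, adjusted p under 0.05 over 14183 genes), beside 2 of 14183 genes, or 0.0141%. At an unadjusted p under 0.05 there were 2 members, Gbp9 and Gbp10, beside 5.04% of all genes, and DESeq2 called 0 of the 5 members for which it gave an adjusted p. It gave none for Gbp10, Gbp6 and Gbp5. The 8 muscle libraries come from the same mice as the fat libraries in which Gbp9 and Gbp10 first stood out, so they are not a separate set of animals.

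Gbp9 was at 38.1, 28.6, 27.7 and 33.9 CPM in muscle of knockout mice 139, 958, 960 and 29, against 18.8, 22.5, 27.0 and 11.9 CPM in control mice 131, 137, 138 and 11. All knockouts lay above all controls, as they did for 1.85% of the genes tested, although control 138 lay within 1 CPM of knockout 960. The log2 fold change was 0.66 (SE 0.22; edgeR p = 0.0135, adjusted p = 0.907), and the two-sided exact permutation p was 0.0286, the smallest that 4 against 4 can give. With no filter on low counts the adjusted p was 0.0039, and over 16 alternatives it ran between 0.0039 and 1. Muscle libraries of control mice 131 and 11 held 425316 and 336816 counts of the ribosomal RNA gene CT010467.1, against 310 to 565 in the 6 remaining ones. With these mice left out, the log2 fold change of Gbp9 was 0.36 (SE 0.14), and Gbp9 was then not called either. The sum of Gbp9 and Gbp10 overlapped in muscle, at 29.3 to 42.0 CPM in the knockouts and 15.5 to 29.4 CPM in the controls.

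Gbp10 was at 3.84, 1.93, 1.59 and 2.10 CPM in the same knockout muscles, against 6.09, 6.93, 1.76 and 3.62 CPM in the controls, and the groups overlapped through control 138 and knockout 139. Its log2 fold change was -0.98 (SE 0.42; edgeR p = 0.0444, adjusted p = 0.949; exact permutation p = 0.2), and with no filter on low counts the adjusted p was 0.022 (range 0.022 to 1 over the alternatives that gave one). The other members tested had log2 fold changes between -0.23 for Gbp6 and 0.33 for Gbp3. For Gbp4 the SE of 0.39 was larger than its log2 fold change of 0.07. Gbp8 had 8 counts over the 4 knockout muscles and 14 over the 4 control muscles, and with no filter on low counts its log2 fold change was -1.02 (SE 0.73; edgeR adjusted p = 0.775; exact permutation p = 0.0571). Gbp11 had 9 counts over the knockout muscles and 5 over the control muscles, with a log2 fold change of 0.55 (SE 0.91; edgeR adjusted p = 0.910; exact permutation p = 0.571). Both overlapped between genotypes.

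The summed chromosome 5 cluster in muscle was at 83.3, 57.5, 48.8 and 71.7 CPM in knockouts 139, 958, 960 and 29, against 45.4, 53.8, 74.5 and 44.6 CPM in controls 131, 137, 138 and 11. The groups overlapped. The cluster held 48.0% ± 1.18 of Gbp counts in knockout muscle and 48.3% ± 2.91 in control muscle (SD, n = 4 each), while the share of Gbp9 alone was 22.1 to 28.05% in the knockouts and 11.8 to 21.3% in the controls. The cluster without Gbp9 held 21.3 to 26.3% in the knockouts and 28.1 to 32.5% in the controls. Shares of 1 total move against each other, so these 2 results are not separate.

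Of the 25 interferon-gamma pathway genes, 21 were tested in muscle and 0 were called, with a median log2 fold change of 0.13 beside 0.00 for all genes. At an unadjusted p under 0.05 there was 1 gene, Irf1, which codes for the transcription factor IRF1, with a log2 fold change of 0.44 (SE 0.15; edgeR adjusted p = 0.907). Of the 13 inflammasome and prenylation genes, 9 were tested and 0 were called, with a median of 0.02 and 0 at an unadjusted p under 0.05. DESeq2 called 0 genes of both lists, but gave no adjusted p for 10 of the 21 and 6 of the 9. The 7 macrophage markers summed to 84.7 to 112 CPM in knockout muscle and 53.5 to 87.9 CPM in control muscle, and all 7 had a log2 fold change above 0, with a median of 0.43. Of these, 0 were called by edgeR, 3 had an unadjusted edgeR p under 0.05, and DESeq2 called 0 and gave no adjusted p for 4. The 6 endothelial and 5 fibroblast markers were also all above 0 in muscle, with medians of 0.06 and 0.24. Their part in the Gbp9 difference was not tested.

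In fat, where the genotype contrast had a part in the choice of members, the values are a description. Gbp9 was at 37.1, 35.0, 29.5 and 31.8 CPM in fat of knockout mice 139, 958, 960 and 29, against 19.5, 19.8, 18.2 and 16.3 CPM in controls 131, 137, 138 and 11. All knockouts lay above all controls, as for 3.31% of genes, and the means were 33.4 ± 3.40 CPM in knockouts and 18.5 ± 1.57 CPM in controls (SD, n = 4 each), a log2 fold change of 0.85 (SE 0.10). Leaving out any 1 mouse kept the log2 fold change between 0.78 and 0.90. Gbp9 held 14.1 to 17.2% of Gbp counts in knockout fat and 7.18 to 11.4% in control fat. In fat 0 of the 7 macrophage markers had a log2 fold change of knockout over control above 0, with a median of -0.23, and they summed to 250 to 480 CPM in knockouts and 277 to 519 CPM in controls. All 6 endothelial markers were above 0 in fat, with a median of 0.23. They summed to 467 to 565 CPM in knockouts, to 211 CPM in control 138 and to 448 to 531 CPM in the other controls. Their fold changes therefore lean on the fat library of mouse 138. The part of these markers in the fat difference of Gbp9 was not tested.

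Gbp10 ran the other way in fat, at 1.08, 1.25, 0.818 and 1.13 CPM in the knockouts against 1.75, 1.89, 0.446 and 3.80 CPM in the controls, a log2 fold change of -0.88 (SE 0.53). Control 138 was below all knockouts and the other 3 controls were above them. Without mouse 138 the log2 fold change was -1.21 and all knockouts lay below all controls, as for 8.53% of genes, and without control 11 it was -0.35. In fat the sum of Gbp9 and Gbp10 was higher in every knockout, at 30.3 to 38.2 CPM in knockout fat and 18.7 to 21.7 CPM in control fat, beside 3.31% of all genes. Gbp9 made up 81.1 to 97.6% of the joint counts in fat, so the sum repeats the Gbp9 difference and adds no separate result. The fold changes of Gbp9 and Gbp10 in muscle and fat come from the same 8 mice, and a difference between tissues was not tested.

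The other chromosome 5 members in fat overlapped between genotypes. Gbp4 was at 38.3, 28.7, 22.1 and 31.9 CPM in the knockouts against 18.0, 17.4, 20.01 and 25.1 CPM in the controls, a log2 fold change of 0.59 (SE 0.18) in which 1 knockout, mouse 960, lay below control 11. Gbp8 had a log2 fold change of 0.47 (SE 0.30), Gbp6 of 0.12 (SE 0.38) and Gbp11 of -0.08 (SE 0.48). Leaving out 1 mouse moved Gbp8 between 0.29 and 0.65, and turned the sign of Gbp6 (-0.15 to 0.47) and of Gbp11 (-0.36 to 0.47). On chromosome 3, Gbp7 had 0.26 (SE 0.15), Gbp5 0.26 (SE 0.25), Gbp3 0.10 (SE 0.22) and Gbp2 -0.09 (SE 0.15). Without mouse 138 the value of Gbp5 was 0.52. The summed chromosome 5 cluster was at 94.9, 78.5, 63.3 and 81.6 CPM in fat of the knockouts against 53.0, 51.3, 45.1 and 70.8 CPM in fat of the controls, with knockout 960 below control 11. As a share of Gbp counts the cluster did not overlap, at 34.1 to 38.6% in knockout fat and 28.2 to 31.1% in control fat, but without Gbp9 it did, at 18.9 to 23.5% in knockout fat and 16.8 to 23.9% in control fat.

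**Figure D4:**
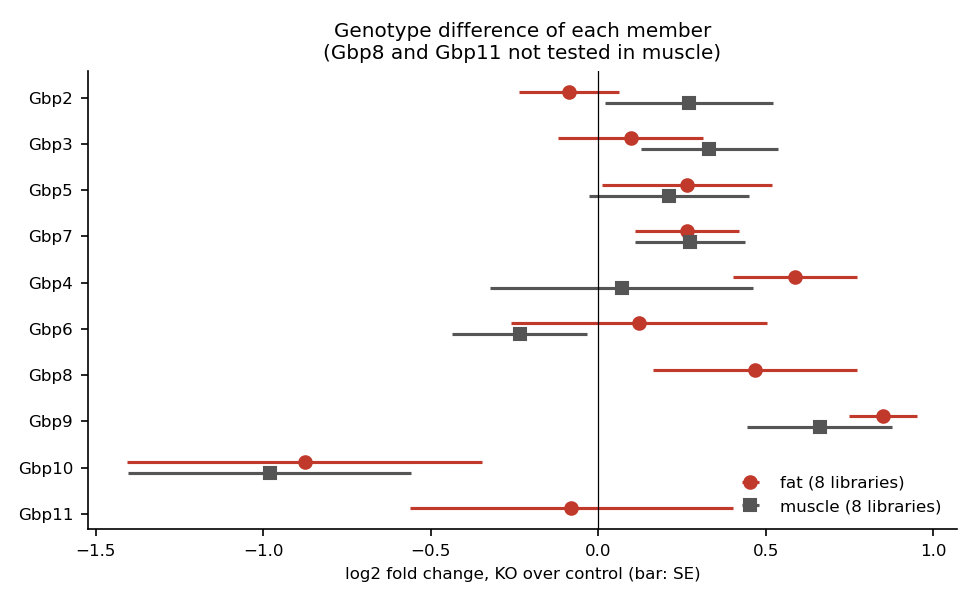
Log2 fold change of knockout over control with its SE, in fat (red circles) and in muscle (grey squares), for each member tested. Gbp9 lies to the right in both tissues, at 0.85 in fat and 0.66 in muscle, and Gbp10 to the left, at -0.88 in fat and -0.98 in muscle.

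The members did not vary as a single block from mouse to mouse. Deviations of log2(CPM + 0.5) from the 4 group means were correlated over the 16 libraries, which come in pairs from 8 mice and share their scaling, and the values are a description. Gbp7 and Gbp4, on different chromosomes, had r = 0.91, and Gbp2, Gbp3 and Gbp7 had r = 0.76 to 0.82 with each other. The sums of the chromosome 5 and chromosome 3 members had r = 0.92. Gbp10 and Gbp6 had r = 0.98 over the 8 fat libraries but 0.37 over the 8 muscle libraries. Gbp6 and Gbp11 had 0.87 in fat and 0.02 in muscle. Of the fat libraries, control 138 was lowest and control 11 highest for Gbp10, Gbp6 and Gbp11, so these fat values lean on 2 mice. No r over fat alone was computed without mouse 138. Of the 51-base stretches of Gbp10, 72.9% also occur in Gbp6, and the part of shared reads in their r was not tested. In muscle Gbp11 had 0 to 5 and Gbp8 1 to 5 counts per library, which limits any r with them there. Over the 16 libraries Gbp9 had r = 0.65 with Gbp2, 0.43 with Gbp4 and -0.03 with Gbp10. Gbp8 lay between -0.62 with Gbp11 and 0.40 with Gbp5, and Gbp5 between -0.57 with Gbp10 and 0.59 with Gbp4. Leaving out the fat library of mouse 138 gave r = 0.93 for Gbp7 with Gbp4 and 0.59 for Gbp10 with Gbp6, which over 16 libraries had 0.74. For Gbp10 with Gbp11 it gave 0.18, against 0.45 over 16 libraries.

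**Figure D5:**
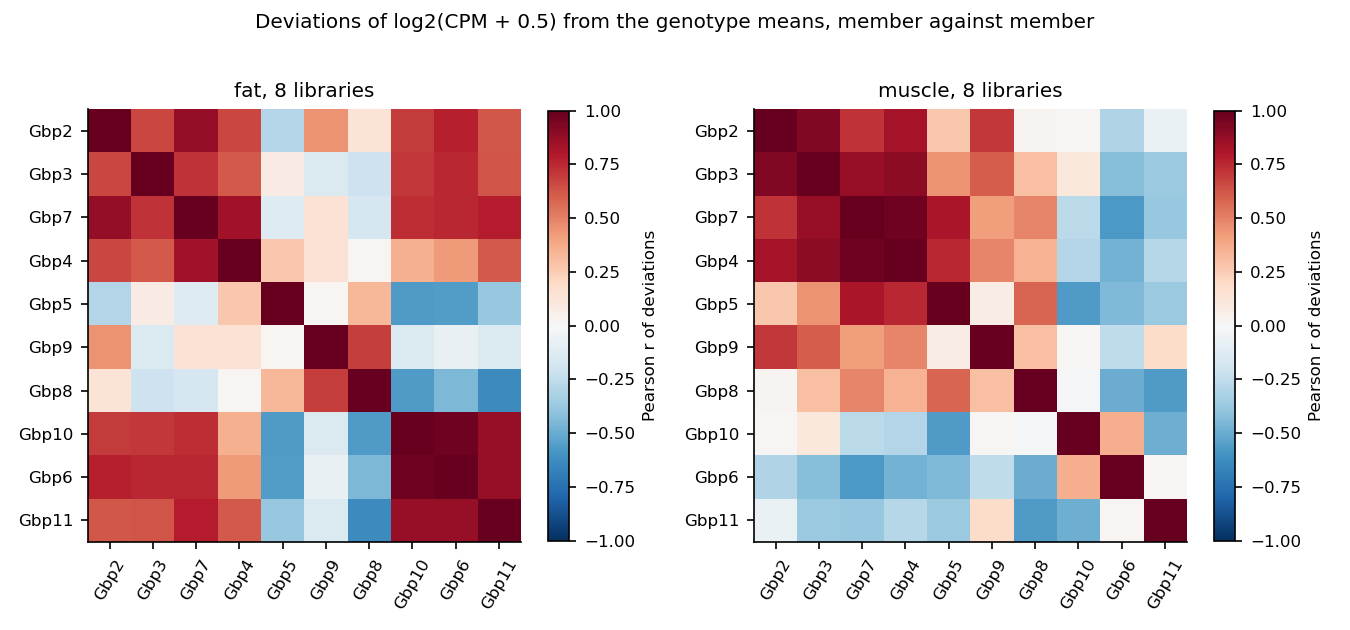
Pearson r of the members' deviations from their genotype means, in 8 fat libraries (left) and 8 muscle libraries (right), on a colour scale between -1 and 1. Gbp2, Gbp3, Gbp7 and Gbp4 form a red block in both tissues, while Gbp10, Gbp6 and Gbp11 form one in fat, where Gbp10 and Gbp6 reach 0.98. The fat block of Gbp10, Gbp6 and Gbp11 leans on control mice 138 and 11, the lowest and highest in fat for these genes. The muscle values of Gbp8 and Gbp11 rest on few counts.

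Among 14588 other genes with a mean of at least 1 CPM, the 5 whose deviations were most like those of the summed chromosome 5 cluster over the 16 libraries were Iigp1 (r = 0.90), Gvin1 (0.88), Ifi47 (0.86), Tgtp2 (0.84) and Rab29 (0.84). Without the fat library of mouse 138 they had r between 0.84 and 0.90.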

How the data were processed

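What the authors deposited is a table of raw counts, unscaled, with 55536 Ensembl gene rows and a column for each library. STAR 2.7.0f, featureCounts 1.6.3, DESeq2 1.22.2 and genome build GRCm38 are named, per the submitters' processing notes, with no role or order. Not given in the sources used here are the annotation release, the strand setting and the treatment of reads in several places or genes. Libraries were stranded and depleted of ribosomal RNA, per the labels' protocols.

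Symbols, coordinates and exons came from GENCODE M21, in which all 55536 identifiers were found. Counts were tested with edgeR 4.0.16 in R 4.3.3 (TMM, filterByExpr, robust quasi-likelihood F test, Benjamini-Hochberg over all genes tested). Tissue was fitted on all 16 libraries as 4 group means and genotype on the 8 libraries of a tissue. The SE was obtained as the size of a log2 fold change over the root of its F statistic. CPM use TMM factors over all 16 libraries, and exact permutation tests use log2(CPM + 0.5) over 70 assignments. Genotype p-values measure the spread between these mice. The main tissue fit has no mouse term, so its p-values take the 16 libraries as separate although they come from 8 mice. The alternative with the mouse as block uses the pairing. Alternatives were DESeq2 1.42.0, limma 3.58.1 with voom, other scalings and filters, Gbp9 and Gbp10 summed, 1 fit of all libraries, the mouse as block and leaving out each mouse. Total counts without TMM factors, the block without mouse 138, and muscle without mice 131 and 11 were chosen after seeing the data. The mouse number in the labels pairs the tissues. Deviations of paired libraries from their group means correlated at -0.02 to 0.17 over 17084 genes. The procedure was tested on simulated data.

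The members, the gene lists and the tests were chosen with earlier results of these data known. The genes named are all members, Myd88, Ckm, Adipoq, up to 4 called members per direction of each list by smallest p, and the 5 genes most like the summed cluster. Irf1 in muscle, Cxcl10, Socs1, Il18, Nlrp3, Pycard, Rce1, Lrrc8c, Zfp326, Abcg3, CT010467.1, Ifng, Ifngr1, Cd3g, Cd8a, Gm43302 and Gm43802 were named after their values or annotation were seen. Sequences are from RefSeq (promoters, 4 of 10 members matched) and the GENCODE genome.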

Additional observations from a re-analysis of the deposited data

Results flagged for a closer look

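Gbp3 in muscle of control mouse 138 was at 12.5 CPM, while the other 3 control muscles were at 9.10 to 9.38 CPM. The gap to the nearest of them was 0.917 of the range of the group, above Dixon's 95% critical value for 4 samples. It was the only library that stood apart in this way among the 43 groups of values checked, and chance marks about 1 group in 20. The knockout muscles were at 8.03 to 17.5 CPM, so the value lies within the range of that group.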

How the results depend on the processing

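Of the tissue results, Gbp2, Gbp3 and Gbp7 were called higher in fat under all 17 alternatives and Gbp10 was called lower under 15 of 16. Gbp8 and Gbp11 were called higher under all 17 too, but entered through fat. Total counts gave 9 members called higher and 0 lower, with Gbp5 at 1.52, Gbp6 at 1.56, Gbp9 at 1.17 and Gbp4 at 1.13, all called, and Gbp10 at -0.002 (scaling shifts all genes). With Gbp9 and Gbp10 summed, 0 members were lower. With no filter Gbp9 was at 0.043 and Gbp4 at 0.002. The mouse as replicate block gave Gbp5 at 0.30 (called) and Gbp4 at 0.0005. The block without mouse 138 gave Gbp5 at 0.28 and Gbp6 at 0.47, both called, Gbp9 at 0.073 and Gbp4 at 0.147. Leaving out each mouse gave Gbp9 between -0.13 and 0.0591, Gbp4 between -0.20 and 0.11, and Gbp6 between 0.22 and 0.49, called without mouse 138.

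In muscle, 1 member was called higher (Gbp9 at 0.67) and 1 lower (Gbp10 at -0.97) with no filter on low counts, and 0 under the other alternatives. Leaving out each mouse gave Gbp4 between -0.10 and 0.43, and without mice 131 and 11 it was at -0.19. Where scaling is not named as the cause, the cause was not tested. Counts limit Gbp8 and Gbp11 in muscle, with 22 and 14 counts.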

Other observations

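Mouse 138 was the control whose Gbp9 and Gbp10 proportions lay with the knockouts in both tissues. Gbp9 made up 90.8 to 94.6% of the joint counts of Gbp9 and Gbp10 in knockout muscle, against 93.9% (95% exact interval 90.9 to 96.1%, for 337 of 359 counts) in muscle of control 138 and 75.5 to 76.6% in muscle of the other 3 controls. In fat it made up 96.6 to 97.3% in knockouts, against 97.6% (95% exact interval 95.8 to 98.8%, for 449 of 460 counts) in control 138 and 81.1 to 91.8% in the other 3 controls. Intervals cover counting error only. The Gbp9 level of control 138 was 18.2 CPM in fat and 27.0 CPM in muscle, below all knockouts in each tissue. Its Gbp10 counts were 11 in fat and 22 in muscle, and its fat library is the one with high smooth muscle and urothelial markers.

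Gbp2b, a chromosome 3 gene of the family that is not among the 10, had 3 to 15 counts in knockout fat and 4 to 20 in control fat, against 0 to 1 in knockout muscle and 0 to 2 in control muscle.

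Of the genes within 1000000 bases of the chromosome 5 cluster that passed the filter on low counts in fat, 2 of 11 were also higher in every knockout than in every control, beside 3.31% of all genes. These were Lrrc8c and Zfp326, with log2 fold changes of 0.47 and 0.31, while Abcg3 had 0.69 with overlapping groups. Of 11 such genes tested in muscle, 0 were higher in every knockout, beside 1.85% of all genes, and 1 was lower in every knockout. Lrrc8c and Zfp326 had log2 fold changes of -0.05 and -0.06 there, with overlapping groups. All are given as a description.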
